A study of Mus musculus with 2 samples.

Results

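The genes described here are 36 genes of the hypoxia response and of glycolysis, chosen by symbol from a fixed list, and all 36 were found among the 54456 distinct gene symbols of the deposited matrices. They comprise 14 enzymes of the path from glucose to lactate, 3 transporters of glucose or lactate, 3 regulators of glycolytic flux, 14 targets of the hypoxia-inducible factors (HIFs) outside that path, the factor gene Hif1a itself and the cytokine gene Mif. RM-1 is a mouse prostate cancer cell line, and the tumours had grown under the skin of C57BL/6 mice from injected RM-1 cells. Single-cell RNA libraries were made on day 10 of treatment with vehicle or with RP-6306, an inhibitor of the CDK1-inhibitory kinase PKMYT1. Both arms carry the genotype label WT, each arm is 1 library, and the labels do not settle whether a library held cells of 1 mouse or more. All values therefore compare 2 libraries. There is no replicate check, no p-value can be given, and the 95% intervals in parentheses cover counting error only.

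In well-oxygenated cells, prolyl hydroxylases of the Egln family mark HIF-1α for destruction. When oxygen is short the protein persists, pairs with Arnt and binds DNA at hypoxia response elements, raising genes for glucose uptake, glycolysis, mitochondrial removal and blood vessel growth. Glycolytic enzymes also have high basal transcription in growing tumour cells and respond to other factors such as Myc, whereas genes such as Bnip3, Egln3 and Ankrd37 are commonly read as more specific reporters of HIF activity.

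The promoters of the members carry the letters of the hypoxia response element core often. The core was spelled ACGTG or GCGTG and was searched on both strands in the 250 bases before each transcription start of RefSeq (build GRCm38.p6); a palindromic CACGTG holds 1 match on each strand and was counted as such. A start site was found for 33 members, and Bnip3l, Ndrg1 and Slc2a3 had no entry. At least 1 core stood in 36 of 46 member windows (78.3%), against 38.6% of all 32851 windows, and ACGTG alone stood in 45.7% against 16.6%. The share with at least 1 core was 80% among 15 windows of the HIF-specific targets and 77.3% among 22 windows of the glycolytic enzymes. The lists differed more in ACGTG alone (60% against 31.8%) and in windows with 2 or more cores (60% against 40.9%). Member windows were also richer in G and C (median 62.8% against 52.4%) and held a median of 16.5 CpG pairs against 6, and the part of base composition in the motif share was not tested. A match describes letters and does not show that a factor bound.

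Windows are printed for 5 HIF-specific targets that differed in opposite directions between the libraries and for 2 glycolytic enzymes. Bnip3 (chr7:138909507-138909756, minus strand), Egln3 (chr12:54203875-54204124, minus strand) and Ankrd37 (chr8:45999851-46000100, minus strand) were lower in the RP-6306 library. P4ha1 (chr10:59323046-59323295, plus strand) and P4ha2 (chr11:54100674-54100923, plus strand) were higher. Pgk1 (chrX:106186850-106187099, plus strand) and Ldha (the upstream of 2 listed starts, chr7:46845554-46845803, plus strand) stand for the enzymes. Each is printed 5′ to 3′ on the strand of its gene, ending at the base before the start site, with the cores in capitals; a core on the opposite strand reads CACGT or CACGC. In GENCODE M21 the windows of Bnip3 and Ankrd37 overlap an annotated exon of their gene by 13 and 17 bases, the windows of P4ha2 and Ldha lie inside their gene without touching an exon, and no other printed window overlaps an exon. The printed Ldha window opens no GENCODE transcript. The window of the other Ldha start (chr7:46846832-46847081) opens one and holds 1 core.
Bnip3: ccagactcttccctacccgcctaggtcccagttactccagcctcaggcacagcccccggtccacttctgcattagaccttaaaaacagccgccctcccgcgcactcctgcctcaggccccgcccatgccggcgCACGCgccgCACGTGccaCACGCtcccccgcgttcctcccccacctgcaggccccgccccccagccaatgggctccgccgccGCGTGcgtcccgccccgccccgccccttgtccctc
Egln3: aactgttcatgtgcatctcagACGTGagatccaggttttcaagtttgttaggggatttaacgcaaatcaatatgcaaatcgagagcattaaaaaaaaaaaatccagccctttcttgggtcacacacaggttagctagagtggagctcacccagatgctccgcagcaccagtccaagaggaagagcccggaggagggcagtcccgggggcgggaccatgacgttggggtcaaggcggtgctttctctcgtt
Ankrd37: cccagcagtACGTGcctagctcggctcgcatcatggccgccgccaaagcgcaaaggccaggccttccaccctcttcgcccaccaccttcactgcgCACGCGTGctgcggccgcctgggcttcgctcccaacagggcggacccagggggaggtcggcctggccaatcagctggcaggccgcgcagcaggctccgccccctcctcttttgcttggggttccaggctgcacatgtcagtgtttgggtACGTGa
P4ha1: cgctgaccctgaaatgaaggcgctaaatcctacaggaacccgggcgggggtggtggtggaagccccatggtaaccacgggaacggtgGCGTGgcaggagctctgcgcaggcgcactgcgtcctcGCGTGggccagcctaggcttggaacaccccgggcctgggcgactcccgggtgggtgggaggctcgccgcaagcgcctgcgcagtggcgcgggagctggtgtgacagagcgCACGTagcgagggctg
P4ha2: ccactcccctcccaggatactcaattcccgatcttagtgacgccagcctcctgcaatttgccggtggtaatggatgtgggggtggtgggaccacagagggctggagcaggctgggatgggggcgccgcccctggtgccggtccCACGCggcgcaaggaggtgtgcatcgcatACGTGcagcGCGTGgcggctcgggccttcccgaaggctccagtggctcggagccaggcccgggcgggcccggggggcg
Pgk1: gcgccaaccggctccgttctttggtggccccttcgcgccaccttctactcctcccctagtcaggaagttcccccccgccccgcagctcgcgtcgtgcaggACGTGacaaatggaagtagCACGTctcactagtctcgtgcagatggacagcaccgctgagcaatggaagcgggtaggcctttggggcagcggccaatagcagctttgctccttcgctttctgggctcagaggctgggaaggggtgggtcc
Ldha: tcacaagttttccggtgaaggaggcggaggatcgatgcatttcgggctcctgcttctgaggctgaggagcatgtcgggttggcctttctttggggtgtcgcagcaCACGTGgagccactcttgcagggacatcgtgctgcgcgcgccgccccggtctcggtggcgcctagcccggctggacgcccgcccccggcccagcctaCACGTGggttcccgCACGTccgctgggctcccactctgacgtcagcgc
Bnip3 and Ldha held 5 cores each, Ankrd37 held 4, P4ha1 and P4ha2 held 3 each, Pgk1 held 2 and Egln3 held 1. The nearest core began 6 bases before the start in Ankrd37, 16 bases in P4ha1, 34 bases in Ldha, 35 bases in Bnip3, 69 bases in P4ha2, 131 bases in Pgk1 and 229 bases in Egln3. Targets lower in RP-6306 and targets higher in it thus both included windows with 3 or more cores.

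The vehicle library held 9686 cell barcodes and the RP-6306 library 10512, with a median of 9087 and 8932 unique molecular identifiers (UMIs, each a counted RNA molecule). After removal of poor cells and likely doublets 8856 and 9500 cells remained, and 34 barcodes occurred in both libraries. Tumour cells were gated by keratin UMIs (Krt8 and Krt18) with leukocyte and stromal markers nearly absent, which gave 7043 vehicle and 7221 RP-6306 cells. Macrophages were gated by Lyz2 together with other macrophage markers and without T cell markers, which gave 291 and 295 cells. Levels are UMIs of a gene per 1000000 UMIs of the gated class and library (CPM). Lyz2 stood at 7.501 and 8.11 CPM in tumour-gated cells and at 5825 and 5589 CPM in macrophage-gated cells. The B cell markers, which no gate used, were at 0 in macrophage-gated cells of both libraries. Other markers were not all absent there. The neutrophil markers had 29 and 56 UMIs (19.1 and 38.2 CPM) and the stromal markers 49 and 48 UMIs (32.3 and 32.7 CPM). The libraries differed beyond the members. In tumour-gated cells 10 cycling markers summed to 1386 CPM in vehicle and 1114 CPM in RP-6306, Krt8 stood at 1009 and 774 CPM, the summed stromal markers stood at 30.9 and 37.6 CPM, mostly through Cdh5 at 26.3 and 32.7 CPM, and the summed neutrophil markers stood at 2.65 and 5.13 CPM. Apart from the cycling markers and Cdh5, which were examined separately, their part in the results was not tested.

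In tumour-gated cells most members were slightly lower in the RP-6306 library, while a small group of HIF targets was higher. Of 36 members, 35 had at least 100 UMIs over both libraries, and 30 of these were lower and 5 were higher, where 57.3% of all 13559 genes with as many UMIs were lower. The interval of the ratio lay below 1 for 27 members, above 1 for P4ha1, P4ha2, Hilpda, Hif1a and Pfkfb3, and spanned 1 for Hk2, Egln1 and Higd1a. At least 1.2-fold lower were 11 members (31.4%), against 9.52% of those genes. At least 1.2-fold higher were 3 members (8.57%), close to the 7.85% of all genes. The median log2 ratio was -0.19 over the members and -0.02 over all genes, on a scale of log2(CPM + 1). Many of the 13559 genes are rare and scatter more, so the count was repeated among genes at a mean of 50 CPM or more over both libraries, a limit set after seeing the data: 5 of 26 members (19.2%) were at least 1.2-fold lower, against 3.5% of 3032 genes. When every cell was thinned to 2000 UMIs, so that deep cells no longer weighed more, the 5 became 2 (7.69%), namely Bnip3 and Egln3, against 4.02% of the same genes.

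**Figure D1:**
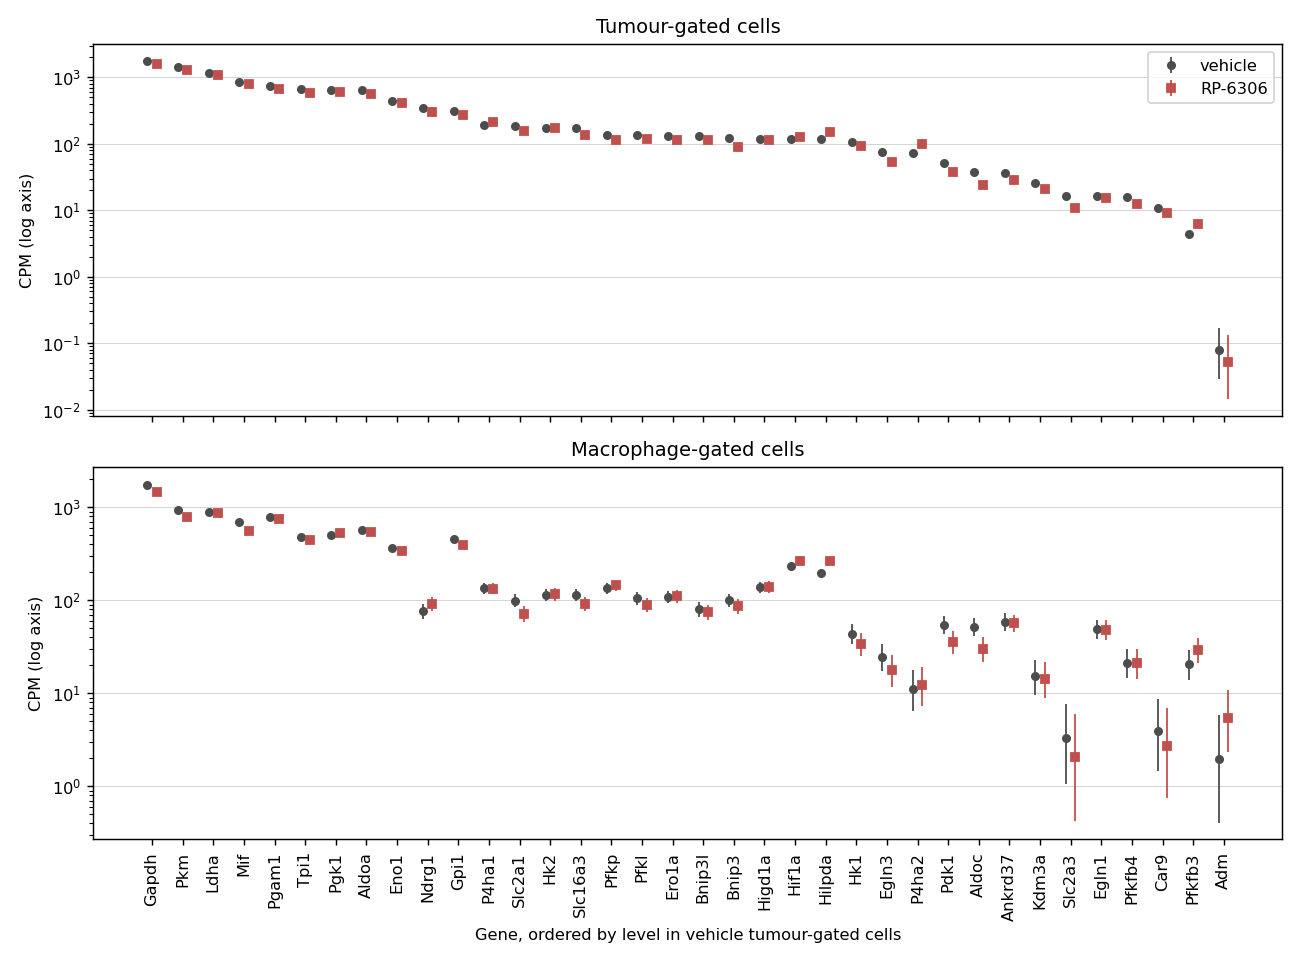
Levels of the 36 members in CPM (log axis) in tumour-gated cells (top) and macrophage-gated cells (bottom), with vehicle as grey circles, RP-6306 as red squares and bars for the 95% counting interval. In tumour-gated cells Gapdh is highest at 1758 and 1574 CPM and Adm lowest at 6 and 4 UMIs.

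The glycolytic enzymes, together with Mif at 862 CPM, were the most abundant members. Molecules were counted once at their 3′ end, so transcript length does not enter the comparison of levels between genes. In vehicle tumour-gated cells the order ran from Gapdh (1758 CPM) through Pkm (1428 CPM), Ldha (1181 CPM), Pgam1 (730 CPM), Tpi1 (667 CPM), Pgk1 (642 CPM), Aldoa (634 CPM), Eno1 (435 CPM), Gpi1 (307 CPM), Hk2 (176 CPM), Pfkp (138 CPM), Pfkl (135 CPM) and Hk1 (107 CPM) to Aldoc (37.4 CPM). Pgk1 and Aldoa did not differ beyond counting error (637 to 648 and 629 to 640 CPM), nor did Pfkp and Pfkl. The most abundant enzymes, Gapdh, Pkm, Ldha and Pgam1, thus lay in the lower part of the path, from glyceraldehyde phosphate to lactate. Earlier steps were not all lower, since Tpi1 exceeded Pgk1 and Eno1, and Aldoa exceeded Eno1. Apart from Aldoc, levels were least at the hexokinase and phosphofructokinase steps that commit glucose to the path.

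All 14 enzymes had the lower value in the RP-6306 library, 2 of them by at least 1.2-fold (9.52% of all genes), although Hk2 stood at 1.01 with cells thinned. Their UMIs summed to 8375 CPM (8355 to 8396) in the vehicle library against 7569 CPM (7549 to 7588) in RP-6306, a ratio of 0.904 (0.900 to 0.907). Hexokinases trap glucose in the cell: Hk1 stood at 107 CPM (105 to 109) and 93.6 CPM (91.4 to 95.8), and Hk2 at 176 CPM (173 to 179) and 173 CPM (170 to 176). The isoforms thus differed, since the Hk1 ratio was 0.873 (0.846 to 0.902) and the Hk2 ratio of 0.986 (0.963 to 1.01) spanned 1. Gpi1, which turns glucose phosphate into fructose phosphate, stood at 307 CPM (303 to 311) and 269 CPM (265 to 273), a ratio of 0.875 (0.859 to 0.892). Of the phosphofructokinases, Pfkl stood at 135 CPM (132 to 137) and 119 CPM (116 to 121), a ratio of 0.883 (0.858 to 0.908). Pfkp stood at 138 CPM (135 to 140) and 114 CPM (112 to 117), a ratio of 0.831 (0.807 to 0.855) that passed the 1.2-fold mark.

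Aldolases split fructose bisphosphate, and Aldoc had the lowest ratio of the enzymes. Aldoc (ENSMUSG00000017390, chr11:78322968-78327781) stood at 37.4 CPM (36.1 to 38.8) in the vehicle library against 24.3 CPM (23.3 to 25.5) in RP-6306, a ratio of 0.651 (0.614 to 0.690). The far more abundant Aldoa stood at 634 and 571 CPM, a ratio of 0.900 (0.888 to 0.911). Tpi1, which interconverts the triose phosphates, stood at 667 and 576 CPM, a ratio of 0.864 (0.853 to 0.875).

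From glyceraldehyde phosphate to lactate the ratios were close to each other and to the sum. Gapdh, the dehydrogenase that makes NADH in this stretch, stood at 1758 CPM (1748 to 1767) and 1574 CPM (1565 to 1583), a ratio of 0.895 (0.888 to 0.902). Pgk1, the first ATP-yielding kinase, stood at 642 and 600.3 CPM, a ratio of 0.935 (0.923 to 0.947). The phosphoglycerate mutase Pgam1 stood at 730 and 661 CPM, a ratio of 0.905 (0.894 to 0.916). The enolase Eno1 stood at 435 and 418 CPM and had, after Hk2, the enzyme ratio nearest to 1 at 0.961 (0.946 to 0.976). Pyruvate kinase Pkm stood at 1428 and 1303 CPM, a ratio of 0.912 (0.905 to 0.920). Lactate dehydrogenase Ldha stood at 1181 and 1072 CPM, a ratio of 0.908 (0.899 to 0.917). Reads shared between near-identical genes can be lost in counting: the copy Eno1b held 2.23% and 1.97% of the UMIs of Eno1, and pseudogenes of Mif held 2.26% and 2.27% of those of Mif.

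As a sum, the transporters were lower by more than the enzymes, although the enzyme Aldoc had a ratio of 0.651. Slc2a1 (GLUT1), the main glucose importer, stood at 187 CPM (184 to 190) in the vehicle library against 154 CPM (152 to 157) in RP-6306, a ratio of 0.826 (0.806 to 0.846). Slc16a3 (MCT4), which exports lactate, stood at 170 CPM (167 to 173) and 134 CPM (132 to 137), a ratio of 0.790 (0.770 to 0.810). Slc2a3 (GLUT3), a high-affinity glucose importer, was rare at 1266 and 832 UMIs, or 16.5 and 10.8 CPM, a ratio of 0.657 (0.601 to 0.718). All 3 were thus at least 1.2-fold lower, against 9.52% of all genes. Summed they stood at 374 and 299.5 CPM, a ratio of 0.802 (0.788 to 0.816). With cells thinned, Slc2a1 at 0.848 (0.801 to 0.896) and Slc16a3 at 0.837 (0.788 to 0.890) fell short of 1.2-fold. Slc2a3 at 0.702 (0.572 to 0.860) kept it.

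The regulators of flux did not move as one. Pdk1, the kinase that keeps pyruvate out of mitochondria by blocking pyruvate dehydrogenase, stood at 51.1 CPM (49.5 to 52.7) and 37.6 CPM (36.3 to 39.0), a ratio of 0.736 (0.701 to 0.773). The bifunctional enzymes that set the level of fructose 2,6-bisphosphate, an activator of phosphofructokinase, were both rare. Pfkfb4 had 1213 and 952 UMIs, a ratio of 0.785 (0.720 to 0.855). Pfkfb3 had 337 and 469 UMIs, a ratio of 1.39 (1.21 to 1.60). The paralogs thus lay on opposite sides of 1. With cells thinned, however, the intervals of both Pfkfb3 (0.9998 to 1.94) and Pfkfb4 (0.702 to 1.04) held 1.

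**Figure D2:**
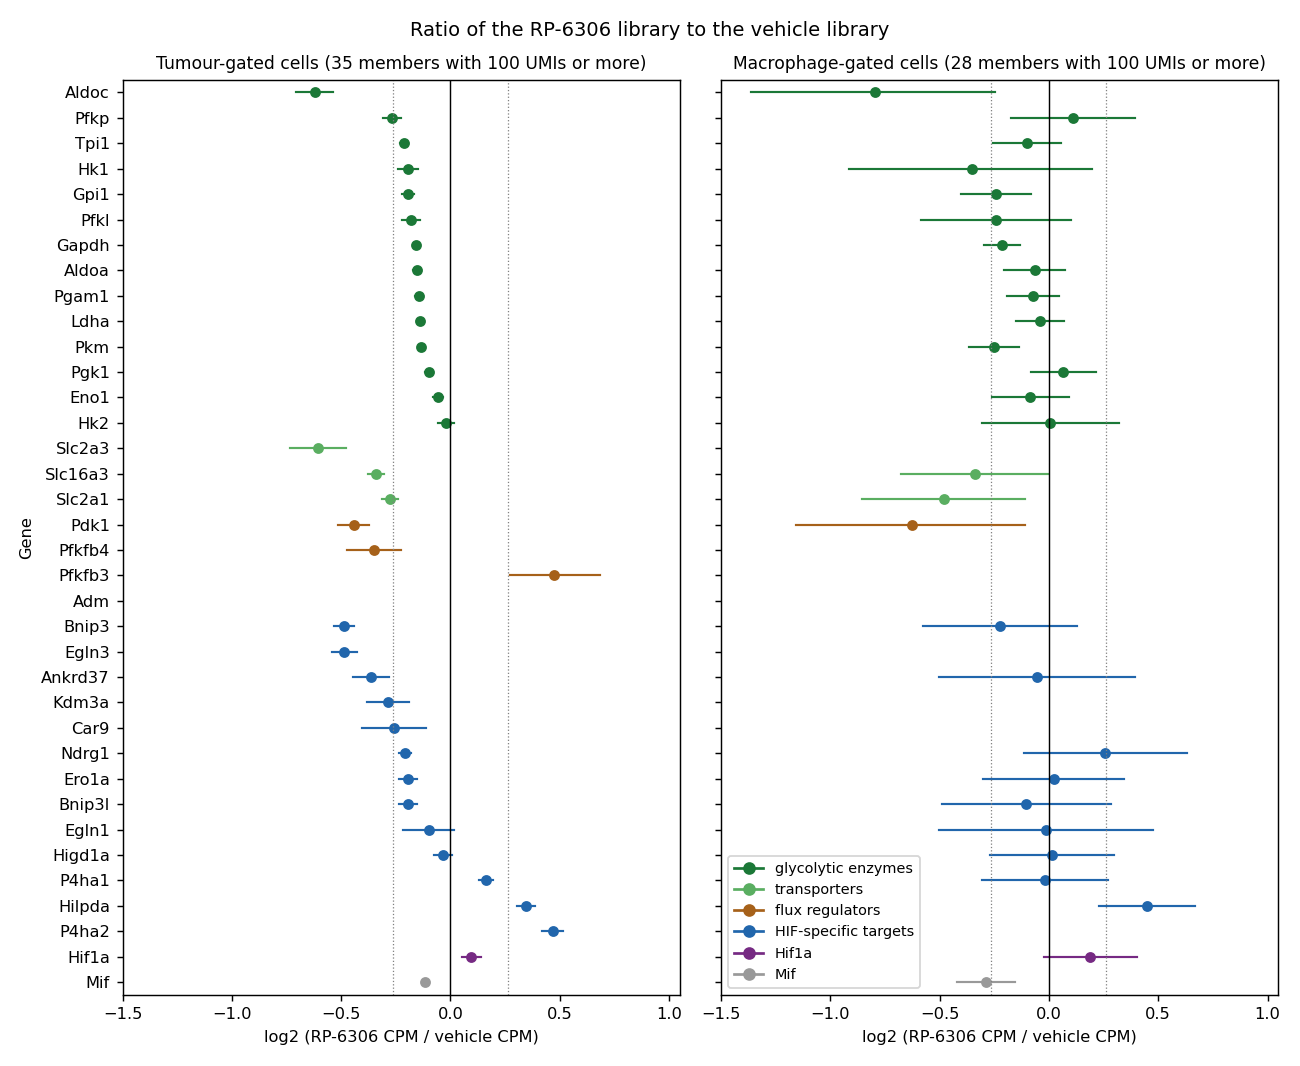
Ratio of the RP-6306 library to the vehicle library for each member (log2 of the CPM ratio) in tumour-gated cells (left) and macrophage-gated cells (right), coloured by role, with bars for the 95% counting interval and dotted lines at 1.2-fold. In tumour-gated cells 30 of 35 members lie left of 0, and P4ha2, Hilpda and Pfkfb3 pass 1.2-fold to the right.

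The HIF-specific targets were split in direction, whereas all enzymes but Hk2, which changed side with cells thinned, lay on the lower side. Of 13 with enough UMIs, 10 were lower, against 57.3% of all genes, and 3 were higher. At least 1.2-fold lower were 4 of them, against 9.52% of all genes, and at least 1.2-fold higher were 2, against 7.85%. Their sum was 1393 CPM (1385 to 1402) in the vehicle library against 1321 CPM (1313 to 1329) in RP-6306, a ratio of 0.948 (0.940 to 0.956). Without Hilpda, P4ha1 and P4ha2, a choice made after their values were seen, the ratio was 0.848, below that of the enzymes. Whether the 2 lists differ by more than mice of 1 arm differ among themselves cannot be tested with 1 library per arm.

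The lower side held several common reporters of HIF activity. Bnip3 (ENSMUSG00000078566, chr7:138890836-138909519), a receptor for the removal of mitochondria, stood at 124 CPM (122 to 127) in the vehicle library against 88.8 CPM (86.7 to 91.0) in RP-6306, a ratio of 0.714 (0.692 to 0.737). Its relative Bnip3l stood at 130.04 and 114 CPM, a ratio of 0.875 (0.850 to 0.901). Egln3 (ENSMUSG00000035105, chr12:54178981-54203860), an oxygen-sensing prolyl hydroxylase that HIF itself induces, stood at 75.6 CPM (73.7 to 77.6) and 54.0 CPM (52.4 to 55.7), a ratio of 0.715 (0.687 to 0.744). The related hydroxylase Egln1 had 1261 and 1178 UMIs, and its ratio of 0.934 (0.862 to 1.01) spanned 1. Ankrd37, an ankyrin-repeat protein known mainly as a HIF target, had 2768 and 2151 UMIs, a ratio of 0.777 (0.734 to 0.822). Kdm3a, a histone demethylase, had 1960 and 1608 UMIs, a ratio of 0.820 (0.767 to 0.876). Bnip3, Egln3, Ankrd37 and Kdm3a were thus the 4 past 1.2-fold.

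Smaller differences were seen for the next 4 targets. Ndrg1, a stress-induced gene and the most abundant of the list, stood at 342 CPM (337 to 346) and 296 CPM (292 to 300), a ratio of 0.866 (0.851 to 0.882). Ero1a, the oxidase of disulfide bond formation in the endoplasmic reticulum, stood at 133 and 116 CPM, a ratio of 0.873 (0.849 to 0.898). Higd1a, a mitochondrial protein, stood at 119 and 116 CPM, and its ratio of 0.977 (0.948 to 1.01) spanned 1. Car9, the carbonic anhydrase that acidifies the outside of hypoxic cells, was low in RM-1 tumours at 837 and 700 UMIs, a ratio of 0.836 (0.755 to 0.925) just short of 1.2-fold. Adm, the vasodilator adrenomedullin, was nearly absent at 6 and 4 UMIs, so no ratio is given. Neither of these last genes, often used to mark hypoxia, was thus an abundant reporter here.

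The higher side held 3 HIF targets. P4ha2 (ENSMUSG00000018906, chr11:54100095-54131665), a catalytic subunit of collagen prolyl hydroxylase, stood at 73.0 CPM (71.1 to 74.9) in the vehicle library against 101 CPM (98.7 to 103) in RP-6306, a ratio of 1.38 (1.34 to 1.43). Its paralog P4ha1 stood at 192 CPM (189 to 195) and 214 CPM (211 to 218), a ratio of 1.12 (1.09 to 1.14). Hilpda (ENSMUSG00000043421, chr6:29272488-29275446), which blocks the breakdown of stored fat at lipid droplets, stood at 117 CPM (114 to 119) and 148 CPM (145 to 151), a ratio of 1.27 (1.24 to 1.31). With cells thinned, the P4ha2 ratio was 1.49 (1.37 to 1.61) and the Hilpda ratio 1.31 (1.23 to 1.40), so equal weights for all cells left both higher. The factor gene Hif1a stood at 117 CPM (115 to 120) and 126 CPM (123 to 128), a ratio of 1.07 (1.04 to 1.10), but thinned it was 1.04 (0.969 to 1.11) and spanned 1. HIF-1α is regulated mainly as protein, which was not measured. Mif, an inflammatory cytokine that HIF can induce, stood at 862 and 796 CPM, a ratio of 0.924 (0.914 to 0.934).

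Several differences were smaller when all cells weighed the same. With cells thinned, all 11 members at least 1.2-fold lower stayed below 1, with ratios from 0.654 to 0.883, but only Slc2a3, Aldoc, Pdk1, Bnip3 and Egln3 kept at least 1.2-fold. All 3 members at least 1.2-fold higher kept it. Bnip3 was then at 0.741 (0.690 to 0.795) and Egln3 at 0.790 (0.720 to 0.867).

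Cycling cells were fewer in the RP-6306 library, so the members were read within cells of like cycling state. Tumour-gated cells without any UMI of 10 cycling markers among 2000 kept UMIs made up 58.4% of vehicle and 61.2% of RP-6306 cells, and cells with 2 or more made up 25.1% and 22.2%. The HIF-specific targets were lower in cycling cells, at 1009 CPM against 1627 CPM in non-cycling vehicle cells. The ratio between the libraries was 0.899 (0.895 to 0.903) for the enzymes in non-cycling cells and 0.899 (0.893 to 0.905) in cycling cells, as large as in all cells. For the HIF-specific targets it was 0.920 (0.910 to 0.930) and 0.973 (0.955 to 0.990). Of the 35 members, 33 had the same direction in both states as in all cells, the exceptions being Hk2 and Egln1. Both states are parts of those cells, so such agreement is in part built in. The share of all genes that agreed was not computed. Bnip3 stood at 0.683 (0.657 to 0.711) and 0.729 (0.680 to 0.782), and P4ha2 at 1.31 (1.25 to 1.37) and 1.41 (1.32 to 1.52).

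The HIF-specific targets were spread unevenly over tumour-gated cells in both libraries. Among 2000 UMIs kept per cell (6966 vehicle and 7101 RP-6306 cells) the median cell held 2 HIF-specific UMIs in each library, the cell at the 90th percentile held 6 in each, and the cell at the 99th percentile held 12 in vehicle and 11 in RP-6306. Cells with 6 or more made up 13.9% (13.0 to 14.7) of vehicle and 12.7% (11.9 to 13.5) of RP-6306 cells. Cells with none made up 14.3% (13.5 to 15.2) and 13.5% (12.7 to 14.3). The glycolytic enzymes, by contrast, had a median of 16 UMIs per cell in vehicle and 14 in RP-6306. The intervals of the 2 libraries thus overlapped both for the share of cells rich in HIF-specific targets and for the share without any. Such an overlap does not show that the shares were equal. The list also sums targets that were lower in RP-6306 and targets that were higher.

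**Figure D3:**
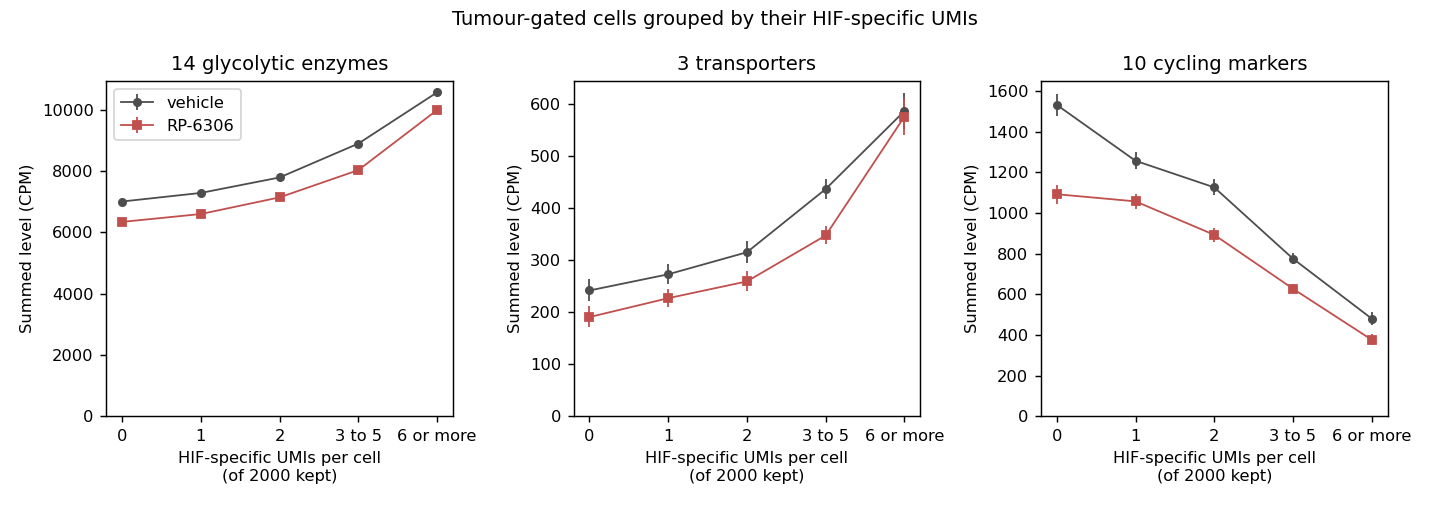
Summed level (CPM) of the 14 glycolytic enzymes, the 3 transporters and the 10 cycling markers in tumour-gated cells grouped by HIF-specific UMIs among 2000 kept, vehicle in grey and RP-6306 in red, bars for the 95% counting interval. Enzymes rise from 7002 to 10561 CPM in vehicle and from 6338 to 9985 CPM in RP-6306, while cycling markers run the other way.

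The enzymes and transporters followed the HIF-specific targets from cell to cell. From cells with 0 to cells with 6 or more HIF-specific UMIs the enzymes went from 7002 to 10561 CPM in vehicle and from 6338 to 9985 CPM in RP-6306. The transporters went from 242 to 587 CPM and from 191 to 576 CPM. The cycling markers went the other way, from 1533 to 480 CPM and from 1093 to 376 CPM, and their part in the gradient was not tested. Between the libraries the enzymes had ratios of 0.905, 0.906, 0.917 and 0.903 in cells with 0, 1, 2 and 3 to 5 HIF-specific UMIs and of 0.945 (0.927 to 0.965) in cells with 6 or more. The lower enzyme level of the RP-6306 library was thus present in cells with no HIF-specific UMI, at 0.905 (0.883 to 0.927). The transporters had a ratio of 0.789 (0.687 to 0.905) in cells with none and of 0.982 (0.902 to 1.07) in cells with 6 or more, where it spanned 1.

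Single members differed widely in how far they followed the other HIF-specific targets. Each was compared between cells with 6 or more and cells with 0 UMIs of the list, its own UMIs left out. Of 13 HIF-specific targets, 12 had an interval above 1 in both libraries, with a median of 2.45 in vehicle and 2.64 in RP-6306, and Egln1 was the exception. All 14 enzymes also lay above 1 in both, with medians of 1.71 and 1.65. The steepest well-counted members were Ero1a at 7.53-fold (6.16 to 9.27) and 5.85-fold (4.81 to 7.16), Ndrg1 at 5.06-fold and 4.36-fold, and Bnip3 at 4.94-fold and 5.97-fold. Among the glucose genes, Slc2a1 at 2.90-fold and 3.39-fold and Pdk1 at 2.71-fold and 3.08-fold were steep. The shallowest enzymes were Eno1 at 1.21-fold and 1.27-fold, Pkm at 1.26-fold and 1.36-fold and Ldha at 1.28-fold and 1.42-fold. For scale, Krt8 stood at 1.36-fold (1.27 to 1.45) and 1.32-fold (1.22 to 1.42), values near those of these 3 enzymes. Actb stood at 1.03-fold (1.01 to 1.06) and 1.09-fold (1.06 to 1.11). Both genes lie outside the lists and also had an interval above 1 in both libraries. The share of all genes with such intervals was not computed. Hif1a did not follow at 0.9748-fold (0.809 to 1.17) and 1.09-fold (0.9005 to 1.32). Pfkfb4 stood at 1.001-fold (0.580 to 1.73) and 1.02-fold (0.550 to 1.89), on 30 vehicle and 24 RP-6306 UMIs in cells with none. Its intervals also held the enzyme medians, so it was too rare to place, as was Pfkfb3.

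**Figure D4:**
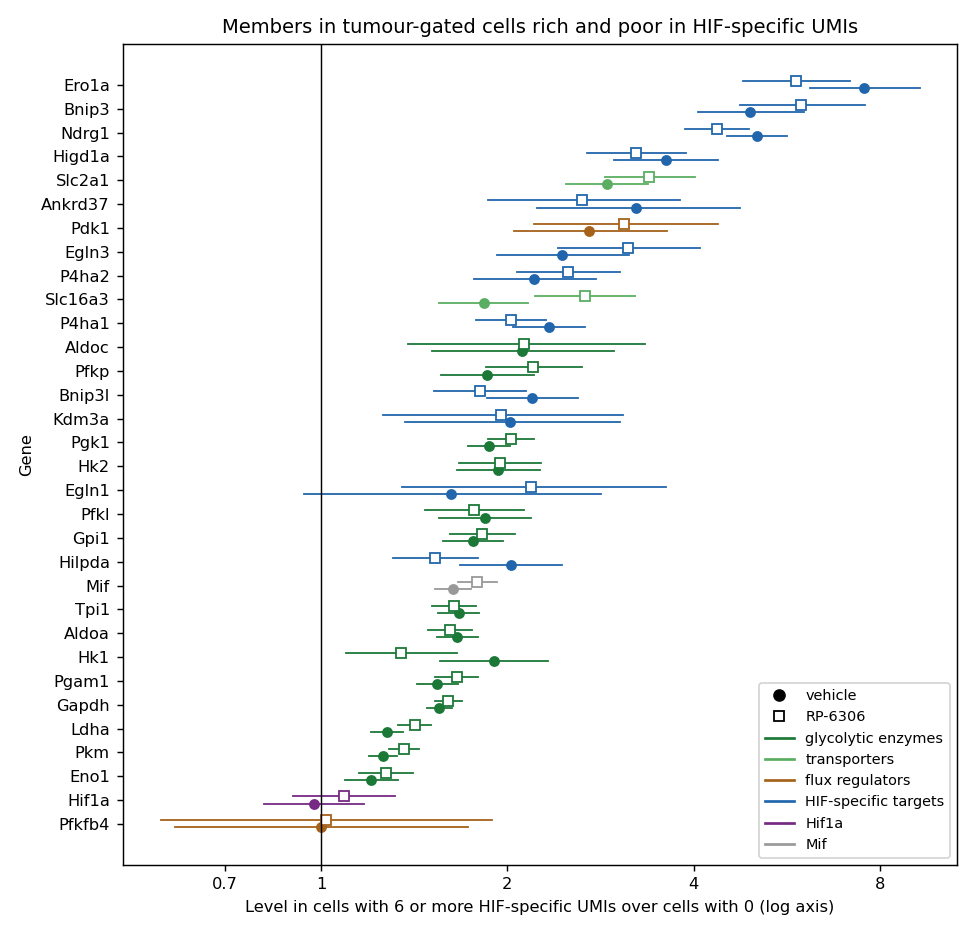
Fold of each member's level in tumour-gated cells with 6 or more over cells with 0 HIF-specific UMIs (log axis, own UMIs left out), filled circles for vehicle and open squares for RP-6306, coloured by role, bars for the 95% counting interval. Ero1a, Ndrg1 and Bnip3 lead, and Hif1a and Pfkfb4 lie near 1, Pfkfb4 with wide intervals. Slc2a3, Car9, Pfkfb3 and Adm are not drawn.

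Hilpda and P4ha2 were higher in RP-6306 in cells both poor and rich in other HIF-specific UMIs. Hilpda was 1.65 times (1.37 to 1.98) its vehicle level in cells with none and 1.24 times (1.055 to 1.47) in cells with 6 or more. P4ha2 was 1.38 times (1.09 to 1.75) and 1.57 times (1.31 to 1.88) its vehicle level. P4ha1 was 1.16 times (1.01 to 1.33) its vehicle level in cells with none and 1.01 times (0.886 to 1.14) in cells with 6 or more, where the interval spanned 1. Bnip3 was lower in cells with none, at 0.736 (0.558 to 0.966), and stood at 0.890 (0.777 to 1.02) in cells with 6 or more. The differences between these groups of cells were not tested.

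In macrophage-gated cells the members stood at similar levels but were counted far less deeply. The enzymes summed to 7167 CPM in vehicle, 0.856 of the tumour-gated level, and the HIF-specific targets to 999 CPM, or 0.717 of it. Of 30 members at a mean of 20 CPM or more, Egln1 alone was at least 2-fold higher than in tumour-gated cells in both libraries (2.97 and 3.15 times), a smaller share than the 14.8% of all genes. Lower by at least 2-fold in both were the 4 members Hk1, Egln3, Ndrg1 and P4ha2, a share near the 12.1% of all genes. To gauge free tumour RNA, 5 tumour genes outside the gates (Krt19, Sox9, Barx2, Areg and Ereg) were summed; they stood in macrophages at 0.0894 (0.0745 to 0.106) of their tumour-gated level in vehicle and at 0.0913 (0.0755 to 0.110) in RP-6306. Areg held 77 of the 127 macrophage UMIs of this sum in vehicle and 71 of 116 in RP-6306. The single genes ran from 0.0355 (Sox9) to 0.125 (Areg) in vehicle and from 0.0422 (Barx2) to 0.119 (Areg) in RP-6306. P4ha2 at 0.154 (0.0895 to 0.246) and 0.122 (0.0720 to 0.192) overlapped the summed background, so its macrophage UMIs could not be told apart from that background. Egln3 at 0.323 (0.227 to 0.446) and Ndrg1 at 0.222 (0.183 to 0.267) in vehicle lay above it, as they did in RP-6306 at 0.328 (0.214 to 0.481) and 0.306 (0.256 to 0.363). Hif1a was higher in macrophages at 232 and 264 CPM, as was Hilpda at 196 and 267 CPM, 1.97 and 2.101 times and 1.68 and 1.81 times the tumour-gated level.

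Between the libraries the macrophage members were mostly not separable from counting error. Of 28 with 100 UMIs or more, 20 were lower and 8 higher, where 51.3% of all 4210 genes were lower, and the interval spanned 1 for 19. At least 1.2-fold lower were 6 (21.4%), against 13.4% of those genes, and 1 (3.57%) was at least that much higher, against 14.1%. The 6 were Aldoc at 79 and 44 UMIs (ratio 0.576, 0.389 to 0.843), Pdk1 at 83 and 52 UMIs (0.647, 0.449 to 0.927), Slc2a1 at 150 and 104 UMIs (0.717, 0.553 to 0.926), Hk1 at 66 and 50 UMIs (0.783, 0.531 to 1.15), Slc16a3 at 174 and 133 UMIs (0.790, 0.626 to 0.996) and Mif at 1041 and 825 UMIs (0.819, 0.747 to 0.898). With cells thinned to 1000 UMIs in 1 random draw, Slc2a1, Slc16a3, Pdk1 and Mif stayed at least 1.2-fold lower. Among these, only the interval of Mif (0.579 to 0.894) lay below 1. Those of Slc2a1 (0.382 to 1.16), Slc16a3 (0.429 to 1.24) and Pdk1 (0.227 to 1.43, on 15 and 9 UMIs) spanned 1. Aldoc at 7 and 12 UMIs and Hk1 at 9 and 13 UMIs were higher, with intervals that also spanned 1. Past 1.2-fold lower only when thinned were Gpi1 at 0.723 (0.560 to 0.931), Bnip3 at 0.748 (0.445 to 1.24) and Bnip3l at 0.801 (0.405 to 1.57). Hif1a stood at 1.48 (1.07 to 2.07) thinned, with its interval above 1. As a mean over cells without thinning, all 6 called on all UMIs stayed at least 1.2-fold lower. Aldoc, Pdk1, Slc2a1 and Slc16a3 were thus past 1.2-fold lower in both cell classes on all UMIs. Of these, Pdk1 alone was also past it with cells thinned in both, though its thinned macrophage interval spanned 1. The glycolytic sum had a ratio of 0.914 (0.889 to 0.940), close to that of tumour-gated cells, but with cells thinned it was 0.961. Gapdh at 1716 and 1477 CPM (0.861, 0.813 to 0.911), Pkm at 935 and 786 CPM (0.840, 0.777 to 0.909) and Gpi1 at 462 and 391 CPM (0.846, 0.756 to 0.946) were the abundant enzymes whose interval lay below 1. With cells thinned, the intervals of Gapdh at 0.937 (0.823 to 1.07) and Pkm at 0.928 (0.783 to 1.10) spanned 1, while that of Gpi1 stayed below it. The HIF-specific sum had a ratio of 1.06 (0.988 to 1.14), which spanned 1, and thinned it was 0.996. Within it Hilpda was the member past 1.2-fold higher, at 196 CPM (174 to 220) and 267 CPM (241 to 295), a ratio of 1.36 (1.17 to 1.59). With cells thinned, Hilpda had 72 and 71 UMIs, a ratio of 0.966 (0.686 to 1.36), which spanned 1 and lay on the other side of it, whereas as a mean over cells the ratio was 1.296.

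Not counted as tested in macrophages for lack of UMIs were 8 members. Egln3 had 37 and 26 UMIs, Kdm3a 23 and 21, P4ha2 17 and 18, Pfkfb3 31 and 43, Pfkfb4 32 and 31, Car9 6 and 4, Slc2a3 5 and 3, and Adm 3 and 8. Pfkfb3 stood at 4.65 times (3.11 to 6.73) its tumour-gated level in vehicle and 4.79 times (3.42 to 6.56) in RP-6306, with both intervals above 1. Adm, at 3 and 8 UMIs, stood at 1.98 and 5.46 CPM, against 0.0783 and 0.0522 CPM in tumour-gated cells.

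Macrophages with Arg1, the arginase of tumour macrophages, were richer in HIF-specific targets. Among 1000 UMIs kept per cell, 65 of 288 vehicle and 46 of 294 RP-6306 macrophages held an Arg1 UMI. Their HIF-specific sum was 1862 CPM against 784 CPM in Arg1-negative vehicle cells (2.37-fold, 2.14 to 2.64) and 2173 CPM against 830 CPM in RP-6306 (2.62-fold, 2.35 to 2.91). Among the members read in this split, Hilpda had the largest fold in vehicle, at 573 CPM against 102 CPM (5.60-fold, 4.42 to 7.11). In RP-6306 it stood at 619 CPM against 195 CPM (3.17-fold, 2.58 to 3.903). Larger folds there were those of Ndrg1 (4.24-fold, 2.97 to 6.04), Egln3 (3.56-fold, 1.48 to 8.29) and Bnip3 (3.41-fold, 2.35 to 4.93). The glycolytic sum was 1.48-fold and 1.60-fold higher. Of the tumour genes, only Krt19 and Areg were read in this split. Krt19 stood at 0.803 (0.200 to 2.40) and 0.910 (0.170 to 3.18) and Areg at 0.971 (0.513 to 1.73) and 1.53 (0.8305 to 2.68), all spanning 1. In cells with Arg1 they had only 4 and 3 UMIs (Krt19) and 15 and 17 UMIs (Areg). Intervals this wide do not show that tumour RNA was even between the groups. With levels also taken from the thinned UMIs, the HIF-specific sum was 2.80-fold (2.22 to 3.53) and 2.29-fold (1.78 to 2.93) higher in the cells with Arg1, and Hilpda 4.803-fold (2.94 to 7.95) and 2.42-fold (1.39 to 4.08).

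**Figure D5:**
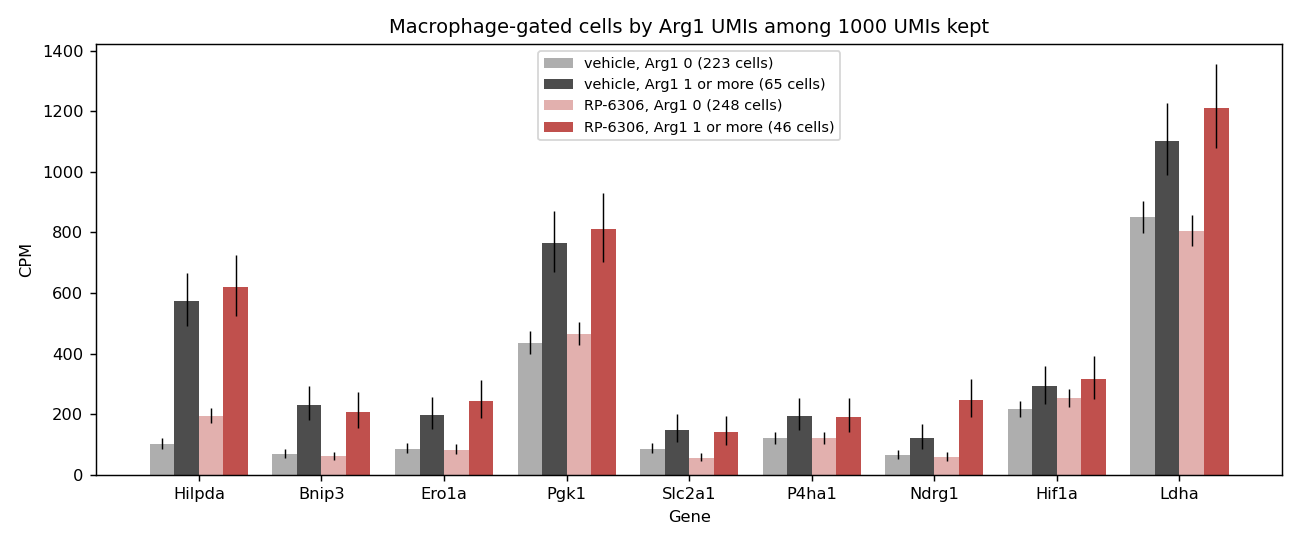
Levels (CPM) of 9 members in macrophage-gated cells without (light bars) and with (dark bars) an Arg1 UMI among 1000 kept, vehicle in grey and RP-6306 in red, lines for the 95% counting interval. Hilpda shows the widest gap, 102 against 573 CPM in vehicle.

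Other genes of the pathway, from lists chosen beside the members, lay on both sides of 1 in tumour-gated cells. Of 22 other HIF targets with 100 UMIs or more, 15 were lower (57.3% of all genes were) and 7 higher, with a median log2 ratio of -0.09, against -0.02 over all genes. Vegfa, the vessel growth factor, stood at 113 and 96.1 CPM, a ratio of 0.851 (0.825 to 0.878). Mxi1, an antagonist of Myc, stood at 67.5 and 52.5 CPM, a ratio of 0.777 (0.746 to 0.810), and Anln, a scaffold of cell division, at 41.5 and 33.2 CPM, a ratio of 0.800 (0.759 to 0.843). The largest difference upward was in Angptl4, an inhibitor of lipoprotein lipase, at 151 CPM (148 to 154) and 227 CPM (223 to 230), a ratio between 1.46 and 1.54. Plin2, which coats lipid droplets, stood at 182 and 244 CPM, a ratio of 1.34 (1.32 to 1.37). Angptl4 did not follow the HIF-specific targets across cells, at 0.970-fold and 0.9745-fold, whereas Plin2 stood at 1.64-fold and 1.22-fold. In macrophages Plin2 stood at 311 and 545 CPM, a ratio of 1.75 (1.56 to 1.97).

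Of 5 tested HIF factor and oxygen sensor genes (Epas1, Arnt, Egln2, Hif1an and Vhl), 3 were lower and 2 higher, near the 57.3% lower among all genes, and every interval spanned 1. Of 11 tested further genes of glycolysis and pyruvate use, 9 were lower and 2 higher, against the same 57.3%. Pfkm, the muscle phosphofructokinase, stood at 24.0 and 17.7 CPM, a ratio of 0.739 (0.689 to 0.793).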

How the data were processed

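Single cells of 2 libraries, 1 per arm, were measured with a 10x Genomics 3′ kit, per the labels. The deposited values are raw UMI counts per gene and cell barcode, not normalized. Per the file headers the matrices came from Cell Ranger 7.1.0; version 2.1.1 and build mm10 stand in the submitters' processing notes, and the mismatch was not resolved. Further filters by the authors were not given in the sources used here. Group labels were taken as given. The members and all gene lists were chosen with earlier results of these data known.

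Everything else was computed here (Python 3.11.15, numpy 2.4.6, scipy 1.17.1, pandas 2.3.3, scanpy 1.11.5, matplotlib 3.10.9, R 4.3.3). Cells with under 500 genes (132 in vehicle, 188 in RP-6306) or over 15% mitochondrial UMIs (14 and 16) were removed. The automatic Scrublet threshold (expected rate 0.08) called 0 and 1 doublets and was taken to have failed, so cells with the highest 8% of scores were removed (684 and 808). The tumour gate required at least 2 keratin UMIs and at most 2 UMIs each of the leukocyte and the stromal markers. The macrophage gate required at least 3 Lyz2 UMIs, at least 2 other macrophage markers, at most 5 keratin UMIs and 0 T cell marker UMIs. Counts were summed per gate and library, over 76654518 and 76682498 UMIs in tumour-gated cells (median depths 9684 and 9480) and 1515581 and 1466535 UMIs in macrophage-gated cells (4931 and 4592). The 2 rows named Aldoa were summed, of which 1 held 3 and 1 UMIs. A gene was compared when it had at least 100 UMIs over both libraries. Intervals are exact Poisson for levels, exact conditional for ratios and Clopper-Pearson for shares. Log2 ratios use CPM + 1. With 1 library per arm there was no test, and no p-value or standard error was computed.

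Thinning drew 2000 UMIs per tumour-gated cell (77 and 120 shallower cells left out) and 1000 per macrophage (3 and 1 left out). Cells were grouped by their HIF-specific UMIs or Arg1 UMIs after thinning, and levels in tumour-gated groups used thinned UMIs. Full values are given for members at 50 CPM or more in either library and UMI counts or ranges for the others; of other pathway genes, Vegfa and the 5 with the largest log2 ratio in either direction at 20 CPM or more are named. Positions are those of GENCODE M21 (GRCm38). Alternatives were TMM scaling (edgeR 4.0.16), other totals, weights, filters, gates and folds, and cycling state. Calculations were tested on simulated data.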

Additional observations from a re-analysis of the deposited data

Results flagged for a closer look

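Pgm1, a phosphoglucomutase that links glycogen to glycolysis and not one of the 36 genes, lay on opposite sides of 1 in the 2 cell classes. In tumour-gated cells it stood at 79.7 CPM in vehicle and 65.1 CPM in RP-6306, a ratio of 0.817 (0.787 to 0.848). In macrophage-gated cells it had 63 and 76 UMIs, a ratio of 1.25 (0.881 to 1.77) whose interval held 1. The difference between the classes was not tested.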

How the results depend on the processing

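The summed ratio of the glycolytic enzymes in tumour-gated cells (0.904) was 0.917 with TMM scaling, 0.910 with a total free of mitochondrial and ribosomal genes, 0.910 as a mean over cells, 0.910 with cells thinned, 0.899 in non-cycling cells, 0.899 in cycling cells and 0.900 with Cdh5 left out of the stromal markers. That of the HIF-specific targets (0.948) was 0.962, 0.968 as a mean over cells, 0.972 thinned, 0.920 non-cycling, 0.973 cycling, 0.939 without Cdh5 and 0.848 without Hilpda, P4ha1 and P4ha2. The number of members at least 1.2-fold lower (11) was 5 with cells thinned and 2 at 1.5-fold. In macrophage-gated cells the enzyme ratio (0.914) was 0.961 thinned, and the number lower (6) was 2 at 1.5-fold. All these sums stayed below 1, the cause of the shifts was not tested, and the fold of 1.5 calls fewer genes by construction. Of 105 values for single members in tumour-gated cells under other scalings and weights, 17 moved beyond their counting interval, and Hk2 and Higd1a changed sign; of 84 in macrophage-gated cells 0 did, and Ankrd37, Egln1 and P4ha1 changed sign within theirs. With macrophages thinned, 9 of 28 members changed side of 1, Hilpda, Aldoc and Hk1 among them. Leaving out Cdh5, the 34 shared barcodes or the 3 HIF targets was chosen after seeing the data, and without the shared barcodes both sums stayed within their counting interval. No library could be left out with 1 per arm. No paired analysis was possible because each arm is 1 library. Macrophage values are limited by depth, with 8 members under 100 UMIs.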
